A study of Mus musculus with 8 samples.

Results

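The actin and cell motility machinery was described here by 48 genes, chosen by function with earlier results of these data known. They are the actins, the Arp2/3 complex and its activators, actin-binding proteins, myosins and the proteins that tie actin to the cell membrane. All 48 were among the 23420 rows of the count table, and all 48 passed the filter on low counts, which left 12442 genes for testing. The libraries were made from RNA of mouse dendritic cells, which take up antigen in tissue and carry it to T cells. Cells carried a Gata1 knock-out (KO) and were treated with LPS (KO LPS), were wild type and treated with LPS (WT LPS), carried the knock-out at steady state (KO steady state), or were wild type at steady state (WT steady state). Each of the 4 groups had 2 libraries. LPS, a cell wall component of Gram-negative bacteria, activates dendritic cells, and Gata1 encodes a zinc finger transcription factor best known from the precursors of red cells and platelets. The sources used here do not say how the knock-out was made or in which cells it acts, how the dendritic cells were obtained, how old the mice were, or at which dose and for how long LPS was given.

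Actin filaments are started by the Arp2/3 complex and formins, grow from profilin-bound monomers with the help of formins and Ena/VASP proteins, and are taken apart by cofilin and gelsolin. Myosins pull on the filaments or link them to membranes, and ezrin, radixin and moesin pin them to the cortex under the plasma membrane. Dendritic cells use branched actin at the front for probing and for taking up fluid, contractile myosin II at the rear for movement, and fascin bundles in the long veils and dendrites of the mature cell.

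Total counts ran from 8005151 to 15495249 per library, and the series calls the libraries of a group biological replicates. Nothing says whether they came from separate mice or cultures, so p-values measure the spread between these libraries, which may in part be technical. Gata1 itself had 0 counts in all 4 KO libraries, 0 and 1 in the WT LPS libraries and 1 and 10 in the WT steady-state libraries, so at this depth the check of the labels rests on 1 WT library. The 13 dendritic cell markers were all detected, with a summed level of 6737 and 11320 CPM (counts scaled to library size) in KO LPS, 17980 and 11950 CPM in WT LPS, 21320 and 20120 CPM in KO steady state and 28110 and 15220 CPM in WT steady state. Of the cells that could accompany them, the 10 macrophage markers summed to between 2932 and 7608 CPM, the 11 neutrophil markers with a row to between 183 and 878 CPM, the 8 megakaryocyte and platelet markers to between 88.7 and 466 CPM, the 6 eosinophil markers to between 1.11 and 192 CPM and the 8 mast cell and basophil markers to between 1.24 and 130 CPM. B cell, T and NK cell, stromal and erythroid markers summed to at most 58.8 CPM in any library, and 3 erythroid globin rows were at 0 throughout. In whole-sample RNA, fewer cells of a type and less RNA per cell cannot be told apart.

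The LPS libraries were less alike than the steady-state ones, and the WT LPS libraries were the least alike. The median SD of log2 CPM over the 48 genes was 0.241 in KO LPS, 0.429 in WT LPS, 0.0627 in KO steady state and 0.173 in WT steady state. Between the 2 libraries of a group, 4 of the 48 genes differed by over 2-fold in KO LPS and 15 in WT LPS, against 0 in either steady-state group. These were 8.33% and 31.2% of the 48 genes, beside 13.9% of all genes tested in KO LPS and 25.1% in WT LPS. Over the 48 genes, WT LPS library 2 lay nearer to the steady-state libraries than to its own partner: the median absolute log2 difference was 0.61 from WT LPS library 1, and between 0.22 and 0.32 from the 4 steady-state libraries. WT LPS library 1 was nearest to KO LPS library 2, at 0.32. Outside the 48 genes, WT LPS library 2 had 1017 CPM of Cd14 against 199 and 109 CPM in WT steady state. It had 13.3 CPM of C1qa against 289 and 222 CPM, and 18.7 CPM of Flt3 against 19.9 and 55.9 CPM. Whether both WT LPS libraries had the same treatment cannot be told from these files, so a WT LPS mean stands for 2 unlike libraries. Folds against WT LPS are therefore also given without each of them.

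**Figure D1:**
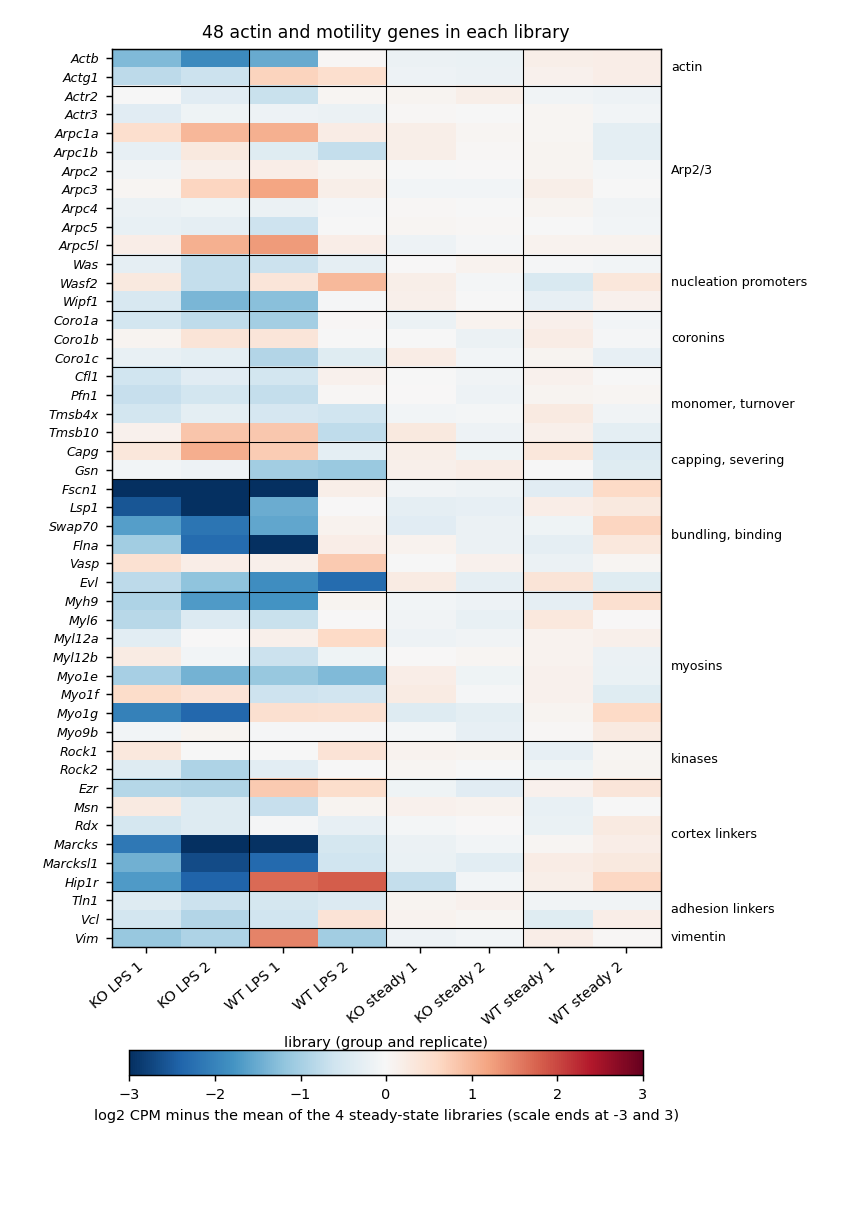
Level of the 48 genes in each of the 8 libraries, as log2 CPM minus the gene's mean over the 4 steady-state libraries, with genes in rows by role and libraries in columns by group. Hip1r is blue in both KO LPS libraries and red in both WT LPS libraries, while the column of WT LPS library 2 is pale for most other genes.

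Levels between genes were compared per kilobase of exon. The monomer-binding protein thymosin beta 4 was the most abundant: Tmsb4x averaged 5040 CPM per kb in KO LPS, 4603 in WT LPS, 6336 in KO steady state and 7158 in WT steady state. Beta-actin followed in each group, with 694 CPM per kb for Actb in KO LPS, 1447 in WT LPS, 1843 in KO steady state and 2380 in WT steady state. Hip1r had the lowest level in 3 of the groups, at 0.656 CPM per kb in KO LPS, 2.03 in KO steady state and 3.52 in WT steady state, and was at 8.93 in WT LPS. Hip1r is thus a low transcript, with 53 and 24 counts in KO LPS and 479 and 1103 counts in WT LPS. Its exons overlap those of Vps37b: 12.2% of the 50-base windows of its transcripts were shared, mostly with that gene. Actg1, the gamma-actin gene, averaged only 11.1 CPM per kb in KO steady state, and 37.4% of its windows were shared with 23 other genes, so its level is uncertain. The same limit holds for Tmsb10, Actr3, Vcl and Arpc1b, each with between 24.3% and 27.0% of windows shared. The kit does not mark strand, so reads of overlapping genes could not be separated.

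The first comparison asked what the knock-out changed in LPS-treated cells. Against WT LPS, 3 genes were lower in KO LPS: Hip1r, which links clathrin-coated pits to actin, Myo1g, a class I myosin of blood cells that tethers membrane to actin and sets membrane tension, and Ezr, which encodes ezrin. No gene of the machinery was called higher. A gene was called at an adjusted p under 0.05 in edgeR's quasi-likelihood test, adjusted by Benjamini and Hochberg's method over all 12442 genes. The 3 of 48 genes called lower stand beside 0.49% of all genes called lower and 0.772% called in either direction. Over the 48 genes the median log2 fold change was -0.22, with 32 genes below 0, and over all genes it was -0.014.

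Hip1r reached 5.99 and 3.67 CPM in KO LPS, against 63.3 and 68.2 CPM in WT LPS. Its KO steady-state libraries had 11.8 and 18.2 CPM and its WT steady-state libraries 21.9 and 29.97 CPM. Both KO LPS libraries thus lay below all 6 others, and both WT LPS libraries above all 6 others. The log2 fold change of Hip1r with LPS was -3.75 ± 0.38 (SE), or 13.5-fold lower in KO (edgeR adjusted p = 0.0237). Vps37b, which overlaps it, had 28.7 and 41.3 CPM in KO LPS and 68.1 and 32.9 CPM in WT LPS, and was not called (edgeR adjusted p = 0.556).

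Myo1g had 227 and 182 CPM in KO LPS, against 1303 and 1271 CPM in WT LPS. Its KO steady-state libraries had 715 and 763 CPM and its WT steady-state libraries 978 and 1399 CPM. The 2 KO LPS libraries stood apart, and the WT LPS libraries lay within the range of WT at steady state. The log2 fold change of Myo1g with LPS was -2.65 ± 0.32 (SE), or 6.29-fold lower in KO (edgeR adjusted p = 0.0314). None of its windows was shared with another gene.

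Ezr had 93.0 and 90.0 CPM in KO LPS, against 293 and 245 CPM in WT LPS. Its KO steady-state libraries had 154 and 133 CPM and its WT steady-state libraries 185 and 216 CPM. The 4 groups did not overlap, and the order from low to high was KO LPS, KO steady state, WT steady state, WT LPS. The log2 fold change of Ezr with LPS was -1.55 ± 0.24 (SE), or 2.94-fold lower in KO (edgeR adjusted p = 0.0442). Its relatives did not share the call: moesin, the most abundant of the 3 linkers of its family, had 1233 and 784 CPM for Msn in KO LPS and 637 and 1076 CPM in WT LPS (edgeR adjusted p = 0.817), and radixin (Rdx) was not called either.

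Windows before an annotated start of these 3 genes are shown, with those of Myo1e and Actg1, described further on. Myo1e was called with LPS in both genotypes, and Actg1 was called in none of the 5 comparisons. Those of Evl and Lsp1, which were called with LPS as well, are not, so the windows shown are a selection. The 250 bases upstream are from RefSeq (GRCm38.p6, the assembly of mm10), written 5′ to 3′ on the gene's strand. Hip1r is at chr5:123973378-123973627 (plus strand), Myo1g at chr11:6520959-6521208 (minus), Ezr at chr17:6782781-6783030 (minus), Myo1e at chr9:70207100-70207349 (plus) and Actg1 at chr11:120348496-120348745 (minus). For Hip1r and Myo1g the outermost annotated start of the gene lies inside the window, at base 123973602 and 6520960. Capitals mark a match to the CArG box, the motif bound by serum response factor, which drives many actin genes.
Hip1r: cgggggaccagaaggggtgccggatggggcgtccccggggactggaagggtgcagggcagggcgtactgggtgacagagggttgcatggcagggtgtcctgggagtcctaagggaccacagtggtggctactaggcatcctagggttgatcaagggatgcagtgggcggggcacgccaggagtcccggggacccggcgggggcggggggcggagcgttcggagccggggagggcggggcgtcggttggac
Myo1g: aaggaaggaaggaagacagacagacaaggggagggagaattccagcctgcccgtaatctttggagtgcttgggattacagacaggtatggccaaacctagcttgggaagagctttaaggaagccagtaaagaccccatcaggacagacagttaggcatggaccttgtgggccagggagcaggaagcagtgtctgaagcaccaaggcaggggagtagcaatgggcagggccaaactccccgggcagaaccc
Ezr: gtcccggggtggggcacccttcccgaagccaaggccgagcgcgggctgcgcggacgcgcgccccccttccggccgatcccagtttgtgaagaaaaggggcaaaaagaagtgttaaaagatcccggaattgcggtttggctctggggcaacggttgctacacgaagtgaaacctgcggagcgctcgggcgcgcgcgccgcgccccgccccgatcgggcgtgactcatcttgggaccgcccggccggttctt
Myo1e: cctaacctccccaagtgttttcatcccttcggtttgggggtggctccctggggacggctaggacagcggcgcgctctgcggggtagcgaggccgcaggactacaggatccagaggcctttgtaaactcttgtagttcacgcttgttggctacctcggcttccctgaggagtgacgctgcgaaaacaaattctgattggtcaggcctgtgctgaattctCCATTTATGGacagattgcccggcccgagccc
Actg1: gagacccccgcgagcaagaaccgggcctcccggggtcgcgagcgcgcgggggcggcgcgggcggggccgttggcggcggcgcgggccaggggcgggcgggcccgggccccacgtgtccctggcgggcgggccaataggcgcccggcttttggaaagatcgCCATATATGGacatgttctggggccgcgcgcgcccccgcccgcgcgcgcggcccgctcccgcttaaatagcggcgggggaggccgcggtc

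The CArG match starts 32 bases before the start of Myo1e and 90 bases before that of Actg1. Windows of this kind were at hand for 42 of the 48 genes, and 5 of them (11.9%) held a CArG box: Actg1, Arpc4, Myl6, Myo1e and Vcl. Over 27025 genes the share was 1.62%. A kappa B motif was in 3 of the 42 windows (7.14%), those of Flna, Rdx and Vim, against 4.46% of genes. The letters AGATAA or TGATAA, a common form of the GATA motif, were in 3 windows (7.14%), those of Cfl1, Myl6 and Tmsb4x, against 18.8% of genes. Motifs were searched on both strands. The windows of Hip1r, Myo1g and Ezr held none of the 3 motifs, and neither did that of Evl, which is not shown. This says only that these letters are not in this stretch.

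**Figure D2:**
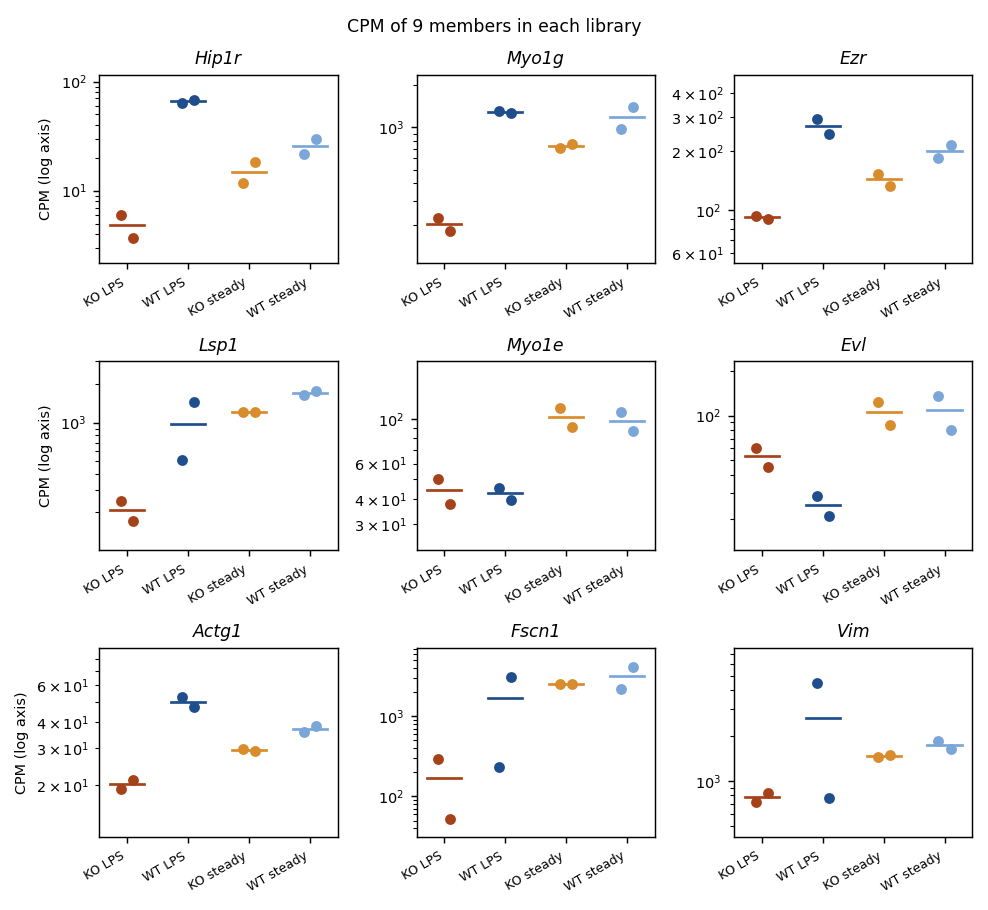
CPM on log axes of 9 genes in each library, by group, with dots for libraries and bars for the group mean. Hip1r, Myo1g and Ezr have both KO LPS dots far below a tight pair of WT LPS dots, while Lsp1, Fscn1 and Vim have WT LPS dots that lie far apart.

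Between KO LPS and WT LPS, 8 more genes had an unadjusted p under 0.05 but were not called. Such a p was reached by 11 of the 48 genes, beside 16.9% of all genes; 8 were lower in KO, beside 9.46% of all genes, and 3 were higher, beside 7.48%. Actg1 came closest: it had 19.3 and 21.3 CPM in KO LPS, against 52.8 and 47.0 CPM in WT LPS (log2 fold change -1.30 ± 0.22 SE, edgeR adjusted p = 0.0522). Lsp1, a leukocyte protein that binds filamentous actin, had 245 and 173 CPM in KO LPS, against 515 and 1451 CPM in WT LPS (log2 fold change -2.24 ± 0.51 SE, edgeR adjusted p = 0.0902). Both genes were lower in each KO library than in each WT library. Without WT LPS library 1 the log2 fold change was -1.22 for Actg1 and -2.80 for Lsp1, and both were called (edgeR adjusted p = 0.0314 and 0.0146). Without WT LPS library 2 it was -1.37 for Actg1, again called, and -1.30 for Lsp1, not called (edgeR adjusted p = 0.0417 and 0.0922). On the other side stood Evl, an Ena/VASP protein that speeds the growth of filament ends, with 60.9 and 45.3 CPM in KO LPS against 28.7 and 21.0 CPM in WT LPS (log2 fold change 1.10 ± 0.35 SE, edgeR adjusted p = 0.177). Gelsolin (Gsn), which severs filaments, and Myo1f, another class I myosin, had values of the same direction (log2 fold changes 0.96 ± 0.24 and 1.07 ± 0.29 SE, edgeR adjusted p = 0.112 and 0.124). Their folds without WT LPS library 1 or 2 were 1.34 and 0.89 for Evl, 0.98 and 0.94 for Gsn and 1.04 and 1.10 for Myo1f, and none of the 3 was called. Libraries of the 2 genotypes did not overlap for 6 genes higher and 10 genes lower in KO LPS, against 18% and 18.1% of all genes.

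For Fscn1, Vim, Actb and Swap70, as for Lsp1 above, the fold moved by over 1.5 times with 1 of the WT LPS libraries left out. Fscn1, which encodes fascin, had 289 and 53.0 CPM in KO LPS, against 236 and 3110 CPM in WT LPS; 1 WT library lay between the KO libraries and the other was near the steady-state level. Vimentin, an intermediate filament protein, was at 719 and 836 CPM for Vim in KO LPS, against 4476 and 767 CPM in WT LPS, so here WT library 1 was the high one. Actb had 2234 and 1487 CPM in KO LPS, against 1977 and 5777 CPM in WT LPS. The log2 fold change of Actb was -1.06 ± 0.54 (SE, edgeR adjusted p = 0.377), and it was -1.64, which was called, without WT LPS library 1 (edgeR adjusted p = 0.047) and -0.08 without WT LPS library 2. That of Fscn1 was -3.29 ± 1.22 (SE, edgeR adjusted p = 0.233), and it was -4.19 without WT LPS library 1 and -0.46 without WT LPS library 2. That of Vim was -1.75 ± 0.71 (SE, edgeR adjusted p = 0.27), and it was 0.01 without WT LPS library 1 and -2.52 without WT LPS library 2. That of Swap70, which encodes an actin-binding activator of Rac, was -1.41 ± 0.55 (SE, edgeR adjusted p = 0.251), -2.01 without WT LPS library 1 and -0.34 without WT LPS library 2.

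The folds of the 3 called genes changed little without either WT LPS library. Without WT LPS library 1 the log2 fold changes were -3.81 for Hip1r, -2.64 for Myo1g and -1.43 for Ezr. They were -3.69, -2.67 and -1.67 without WT LPS library 2. The WT LPS libraries were close for these genes, and a call itself depends on a small spread. Steady folds are therefore no separate support for the calls. Such a fit also leaves WT LPS with 1 library and no spread of its own. Without WT LPS library 1, 9 of the 48 genes (18.8%) were called, beside 6.43% of all genes, and without WT LPS library 2, 5 (10.4%) were, beside 1.61%. Without any 1 of the 4 KO libraries or the 2 WT steady-state libraries no gene of the machinery was called, with edgeR adjusted p between 0.0587 and 0.142 for Hip1r, 0.067 and 0.152 for Myo1g and 0.111 and 0.177 for Ezr. The calls also went when only the 4 LPS libraries were fitted (edgeR adjusted p = 0.183 for Hip1r, 0.317 for Myo1g and 0.357 for Ezr). DESeq2 called 8 of the 48 genes (16.7%), beside 8.2% of all genes. The summed dendritic cell markers were also lower in KO LPS, at 6737 and 11320 CPM against 17980 and 11950 CPM in WT LPS. Of the 13 markers 0 were called. Cd74, H2-Aa and H2-Ab1 together made up most of each of these sums, which hide larger differences of other markers. Itgax, Zbtb46, Irf8 and Batf3 had log2 fold changes of -2.43, -2.47, -2.37 and -2.14 (edgeR adjusted p = 0.0887, 0.0667, 0.0608 and 0.0569). Only Sirpa and Clec9a had folds above 0, at 0.98 and 0.82 on the log2 scale. The summed mast cell and basophil markers were at 1.24 and 3.67 CPM in KO LPS against 130 and 18.6 CPM in WT LPS (0 of 3 tested called, Cma1 at 0 in all libraries). Of these sums Hdc alone made up 1.13 and 3.37 CPM in KO LPS and 130.4 and 17.8 CPM in WT LPS, and no other marker of that list was above 0.248 CPM in any LPS library. The neutrophil markers were at 634 and 413 CPM in KO LPS against 258 and 183 CPM in WT LPS (0 of 9 tested called), of which Mmp8 made up 552 and 348 CPM in KO LPS and 218 and 145 CPM in WT LPS. The macrophage markers, at 6171 and 7608 CPM in KO LPS and 6019 and 2932 CPM in WT LPS, lay higher in both KO libraries as well (0 of 10 called). The 8 megakaryocyte and platelet markers overlapped between the genotypes. The part of these cells in the result was not tested.

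The core of the machinery showed no call in this comparison. The 9 genes of the Arp2/3 complex, which starts branches on existing filaments, had log2 fold changes between -0.38 and 0.57, and the smallest edgeR adjusted p was 0.409. Arpc2, its most abundant subunit gene by CPM, had 500 and 596 CPM in KO LPS and 612 and 568 CPM in WT LPS. The activators Was, Wasf2 and Wipf1, the 3 coronins, which help to take branches apart, and the 4 genes of monomer supply and turnover (Cfl1, Pfn1, Tmsb4x and Tmsb10) were not called either. Wipf1, which stabilizes WASP, had 202 and 108 CPM in KO LPS and 119 and 274 CPM in WT LPS, and Coro1b had 512 and 636 CPM in KO LPS and 619 and 476 CPM in WT LPS. Tmsb4x had 6263 and 7558 CPM in KO LPS and 6513 and 6108 CPM in WT LPS. The same held for the kinase genes Rock1 and Rock2, whose products switch on myosin II, and for talin (Tln1) and vinculin (Vcl), which tie integrins to actin. Rock1 had 119.8 and 96.2 CPM in KO LPS and 95.4 and 128 CPM in WT LPS, and Tln1 had 694 and 588 CPM in KO LPS and 633 and 690 CPM in WT LPS. The libraries of the genotypes overlapped for Rock1, Tln1 and Vcl. Rock2 was lower in both KO libraries, at 77.6 and 53.3 CPM in KO LPS against 81.7 and 99.9 CPM in WT LPS. A missed call does not show that these genes were equal in the 2 genotypes.

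**Figure D3:**
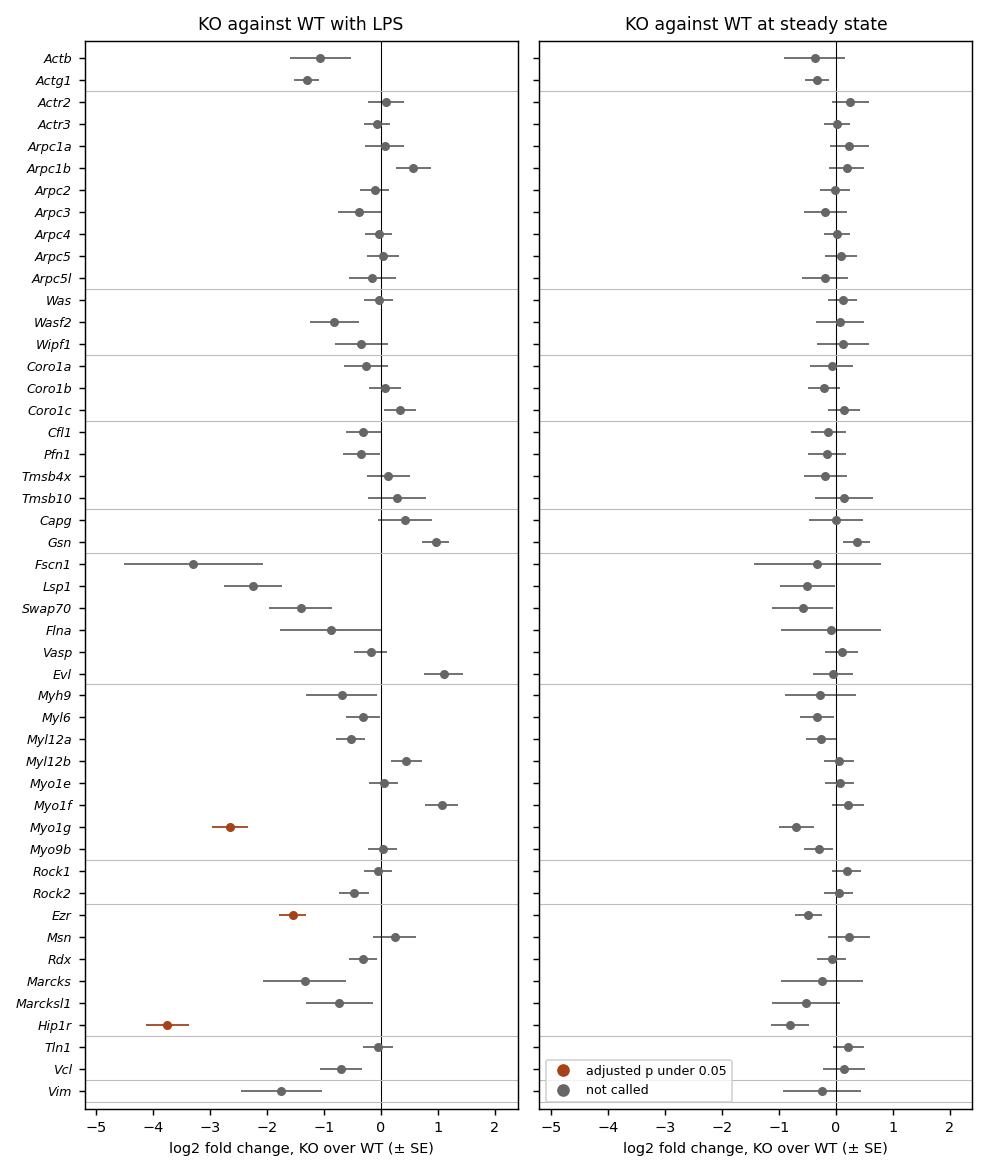
Log2 fold change of each of the 48 genes in KO over WT with LPS (left) and at steady state (right), with bars for ± SE and lines between roles. The 3 called genes, Hip1r, Myo1g and Ezr, are in colour on the left, and no gene is called on the right.

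The same question at steady state gave no call. Of the 48 genes 0 were called in KO steady state against WT steady state by edgeR or by DESeq2, and over all 12442 genes 0% were called by edgeR and 27 genes by DESeq2. At an unadjusted p under 0.05 there was 1 of the 48 genes, Hip1r, against 2.63% of all genes, and 1.58% of all genes were lower at that level. It had 11.8 and 18.2 CPM in KO steady state and 21.9 and 29.97 CPM in WT steady state (log2 fold change -0.80 ± 0.33 SE, edgeR adjusted p = 1). Myo1g, with 715 and 763 CPM in KO against 978 and 1399 CPM in WT, and Ezr, with 154 and 133 CPM in KO against 185 and 216 CPM in WT, were also lower in both KO libraries than in both WT libraries (edgeR adjusted p = 1 for each). For these 3 genes the values at steady state thus lay on the same side as with LPS. Actb had 4959 and 4914 CPM in KO steady state and 6336 and 6415 CPM in WT steady state, also without overlap (edgeR adjusted p = 1). Such a split was seen for 8 genes higher and 17 lower in KO, against 22.1% and 23.4% of all genes. The median log2 fold change was -0.06 over the 48 genes and -0.005 over all genes.

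The next comparison set LPS-treated KO cells against KO cells at steady state. With LPS, 4 genes fell in KO: Myo1g, Lsp1, Myo1e and Hip1r, and none of the 48 rose. The 4 of 48 called lower stand beside 6.46% of all genes called lower and 11.8% called in either direction. The median log2 fold change was -0.42 over the 48 genes and -0.023 over all genes. Libraries did not overlap for 32 genes lower and 7 genes higher with LPS in KO, against 38.2% and 34.4% of all genes. The 48 genes together made up 2.30% and 1.83% of the counts in KO LPS, 2.34% and 3.69% in WT LPS, 3.90% and 4.03% in KO steady state and 4.33% and 4.57% in WT steady state.

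Myo1g, at 227 and 182 CPM in KO LPS against 715 and 763 CPM in KO steady state, fell by 1.85 ± 0.31 (SE) on the log2 scale (edgeR adjusted p = 0.015). Lsp1 was at 245 and 173 CPM in KO LPS, against 1203 and 1220 CPM in KO steady state, and fell by 2.54 ± 0.51 (SE) on the log2 scale (edgeR adjusted p = 0.0246). Myo1e, a long-tailed class I myosin that acts at sites of endocytosis, was at 50.5 and 37.7 CPM in KO LPS, against 114 and 91.6 CPM in KO steady state, and fell by 1.22 ± 0.26 (SE) on the log2 scale (edgeR adjusted p = 0.0286). Hip1r, at 5.99 and 3.67 CPM in KO LPS against 11.8 and 18.2 CPM in KO steady state, fell by 1.62 ± 0.36 (SE) on the log2 scale (edgeR adjusted p = 0.0319). Myo1g and Hip1r were also called in KO LPS against WT LPS. That comparison shares the 2 KO LPS libraries with this one, so the calls are not independent. Myo1e was also called with LPS in WT, a fold that shares no library with this one. Without KO steady-state library 1 or 2 or KO LPS library 2 none of the 48 genes was called, without either WT steady-state library only Myo1g was, without KO LPS library 1 there were 3 (all but Lsp1), and without either WT LPS library 11 were (22.9%, in fits that called 26% of all genes). For Myo1g the edgeR adjusted p was between 0.0988 and 0.116 in the 3 fits that lost it, and over their own lost fits it was between 0.0616 and 0.161 for Lsp1, 0.0611 and 0.193 for Myo1e and 0.065 and 0.202 for Hip1r. Of the marker lists, 5 of 13 dendritic cell markers were called lower with LPS in KO, as were 4 of 10 macrophage markers and 3 of 4 tested eosinophil markers, whose summed level, nearly all of it Siglec5 at steady state, was 1.36 and 4.90 CPM in KO LPS against 159 and 192 CPM in KO steady state; 1 macrophage marker, 1 neutrophil marker and 1 megakaryocyte marker were called higher. Their part in these results was not tested.

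In KO, 9 more genes had an unadjusted p under 0.05, all lower with LPS. That makes 13 of 48 genes, beside 17.1% of all genes lower and 32.8% in either direction at that level. Fscn1 had the lowest fold: 289 and 53.0 CPM in KO LPS, against 2560 and 2492 CPM in KO steady state (log2 fold change -3.88 ± 1.26 SE, edgeR adjusted p = 0.085). Actb had 2234 and 1487 CPM in KO LPS, against 4959 and 4914 CPM in KO steady state (log2 fold change -1.41 ± 0.54 SE, edgeR adjusted p = 0.123). Marcks and Marcksl1, membrane-bound proteins that bind actin and are released by protein kinase C, had log2 fold changes of -2.50 ± 0.76 and -1.68 ± 0.61 (SE, edgeR adjusted p = 0.0726 and 0.109). The other 5 were Swap70, Evl, Ezr, Actg1 and Rock2. Myh9, the heavy chain of myosin II, had 1310 and 772 CPM in KO LPS against 2366 and 2271 CPM in KO steady state and was not called (edgeR adjusted p = 0.233). Of the genes with higher values, Capg, a filament-capping protein of macrophages, had 733 and 1233 CPM in KO LPS against 664 and 531 CPM in KO steady state (edgeR adjusted p = 0.318).

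In WT cells 2 genes fell with LPS, Evl and Myo1e, and none of the 48 rose. The 2 of 48 called lower stand beside 3.49% of all genes called lower and 6.49% called in either direction. Evl was at 28.7 and 21.0 CPM in WT LPS, against 137 and 80.3 CPM in WT steady state, and fell by 2.13 ± 0.36 (SE) on the log2 scale (edgeR adjusted p = 0.0193). Myo1e was at 45.4 and 39.7 CPM in WT LPS, against 109 and 87.4 CPM in WT steady state, and fell by 1.21 ± 0.26 (SE) on the log2 scale (edgeR adjusted p = 0.0396). Myo1e was the 1 gene of the machinery called in both genotypes, with log2 fold changes of -1.22 in KO and -1.21 in WT. The WT fold without WT LPS library 1 or 2 was -2.36 and -1.92 for Evl and -1.30 and -1.12 for Myo1e. In each genotype the Myo1e values of the LPS pair lay below the steady-state pair. The call of Evl went without WT steady-state library 1 (edgeR adjusted p = 0.128). That of Myo1e went without WT LPS library 1 or any 1 of the 4 steady-state libraries (edgeR adjusted p between 0.0651 and 0.237), and 16 of the 48 genes (33.3%) were called without WT LPS library 2, a fit that called 28.3% of all genes. No gene of the machinery was called when only the 4 WT libraries were fitted (edgeR adjusted p = 0.066 for Evl and 0.114 for Myo1e).

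Hip1r had the highest log2 fold change of the 48 genes with LPS in WT cells, at 63.3 and 68.2 CPM in WT LPS against 21.9 and 29.97 CPM in WT steady state. The log2 fold change was 1.34 ± 0.34 (SE), which was not called (edgeR adjusted p = 0.0588), and it was 1.4 without WT LPS library 1 and 1.28, which was called, without WT LPS library 2 (edgeR adjusted p = 0.044). Gsn, with a log2 fold change of -0.90 ± 0.24 (SE, edgeR adjusted p = 0.0726), Marcksl1 with -1.47 ± 0.60 (SE, edgeR adjusted p = 0.173) and the Arp2/3 subunit gene Arpc1a with 0.82 ± 0.34 (SE, edgeR adjusted p = 0.175) were the others at an unadjusted p under 0.05. The fold of Gsn was -0.92 and -0.88 without WT LPS library 1 or 2. Without WT LPS library 1 the fold of Arpc1a was 0.34 and that of Marcksl1 -0.84, and without WT LPS library 2 they were 1.18 and -2.59, both called (edgeR adjusted p = 0.0275 and 0.0181). Myo1g was not called in WT cells, with 1303 and 1271 CPM in WT LPS and 978 and 1399 CPM in WT steady state (edgeR adjusted p = 0.831). In all, 6 of 48 genes reached an unadjusted p under 0.05, beside 26.7% of all genes; 4 were lower with LPS, beside 13.5% of all genes, and 2 were higher, beside 13.2%. Libraries did not overlap for 17 genes lower and 8 genes higher with LPS in WT, against 29.1% and 27.5% of all genes. The median log2 fold change was -0.21 over the 48 genes and 0.0019 over all genes. Among the markers, 1 of 13 dendritic cell markers, 4 of 10 macrophage markers and 2 of 9 tested neutrophil markers were called lower with LPS in WT, as were 1 eosinophil and 1 megakaryocyte marker; 1 macrophage, 1 megakaryocyte and 1 mast cell or basophil marker were called higher, and their part was not tested.

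**Figure D4:**
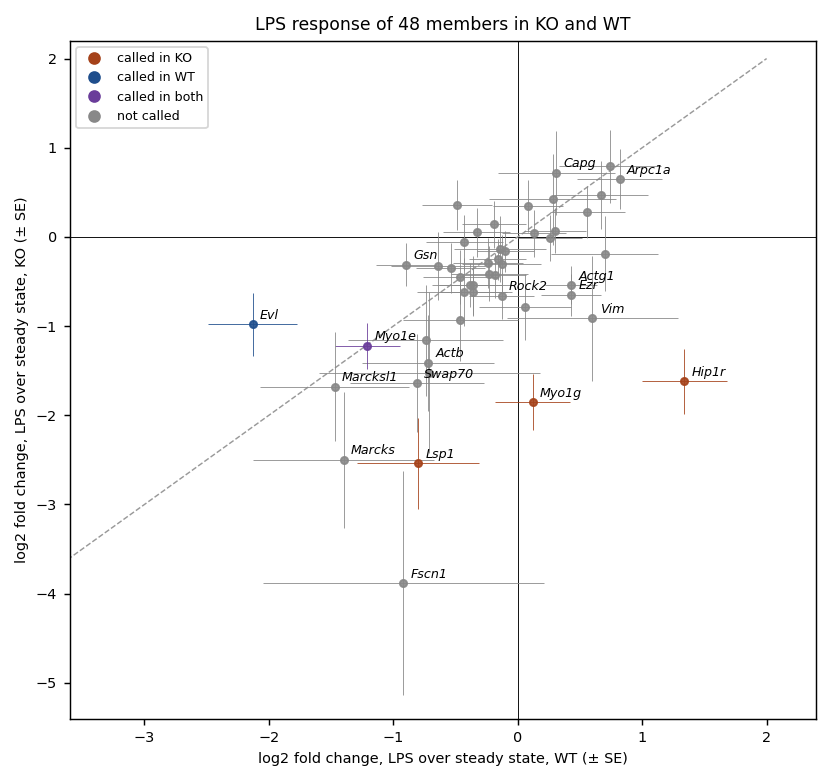
Log2 fold change of each of the 48 genes with LPS over steady state in WT (horizontal) and in KO (vertical), with the diagonal of equal responses. Hip1r lies at -1.62 in KO and 1.34 in WT, Evl and Myo1e are low on both axes, and Fscn1 is at the bottom.

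Whether LPS acted differently in KO than in WT cells was tested by the interaction, the LPS fold in KO minus that in WT. No gene of the machinery was called by edgeR (0 of 48, against 0% of all genes), and 5 had an unadjusted p under 0.05, all negative, beside 6.41% of all genes in either direction and 3.64% below 0. DESeq2 called 2 of the 48, Hip1r and Myo1g, and 99 of all genes. For Hip1r the difference was -2.96 ± 0.49 (SE, edgeR adjusted p = 0.489, DESeq2 adjusted p = 0.000307). For Myo1g it was -1.97 ± 0.43 (SE, edgeR adjusted p = 0.532, DESeq2 adjusted p = 0.00102). Actg1 had -0.97 ± 0.30, Ezr -1.07 ± 0.33 and Lsp1 -1.74 ± 0.69 (SE, edgeR adjusted p = 0.631, 0.631 and 0.734). The value of Lsp1 was -2.31 without WT LPS library 1 and -0.80 without WT LPS library 2. In the same fits Hip1r had -3.01 and -2.89, Myo1g -1.96 and -1.98, Actg1 -0.89 and -1.05 and Ezr -0.94 and -1.19. The interaction had no call in any fit that left out 1 library. The LPS folds of the 2 genotypes share no library, but each shares its libraries with the comparison of KO and WT.

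The WT LPS libraries did not differ evenly over the machinery. In library 2, 11 genes were over 2-fold higher: Fscn1 (13.2-fold), Flna (9.02-fold), Marcks (5.39-fold), Myh9 (3.63-fold), Marcksl1, Swap70, Actb (2.92-fold), Lsp1 (2.82-fold), Wipf1, Coro1a and Vcl. Filamin A, encoded by Flna, crosslinks filaments into nets. In library 1, 4 genes were over 2-fold higher: Vim (5.84-fold), Tmsb10 (3.01-fold), Arpc5l and Capg. In KO LPS the 4 genes over 2-fold apart were all higher in library 1, and Fscn1 was again the most divided, at 5.46-fold. The summed level of the 6 bundling and binding genes was 1741 and 905 CPM in KO LPS, 1324 and 7003 CPM in WT LPS, 5963 and 5637 CPM in KO steady state and 5683 and 8530 CPM in WT steady state. The 9 Arp2/3 genes summed to 2452 and 2870 CPM in KO LPS, 2781 and 2543 CPM in WT LPS, 2731 and 2694 CPM in KO steady state and 2739 and 2433 CPM in WT steady state, a narrow range over all 8 libraries. That holds for the sum, and single genes varied more in opposite directions. In WT LPS, Arpc3 had 619 and 310 CPM and Arpc5l 100.4 and 47.3 CPM, while Actr2 had 254.6 and 423 CPM. Others lay closer, such as Arpc4 at 237.6 and 258.5 CPM. Of the genes called in KO against WT with LPS, whose call itself depends on a small spread, the ratio of WT LPS library 2 over library 1 was 1.08 for Hip1r, 0.975 for Myo1g and 0.837 for Ezr.

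**Figure D5:**
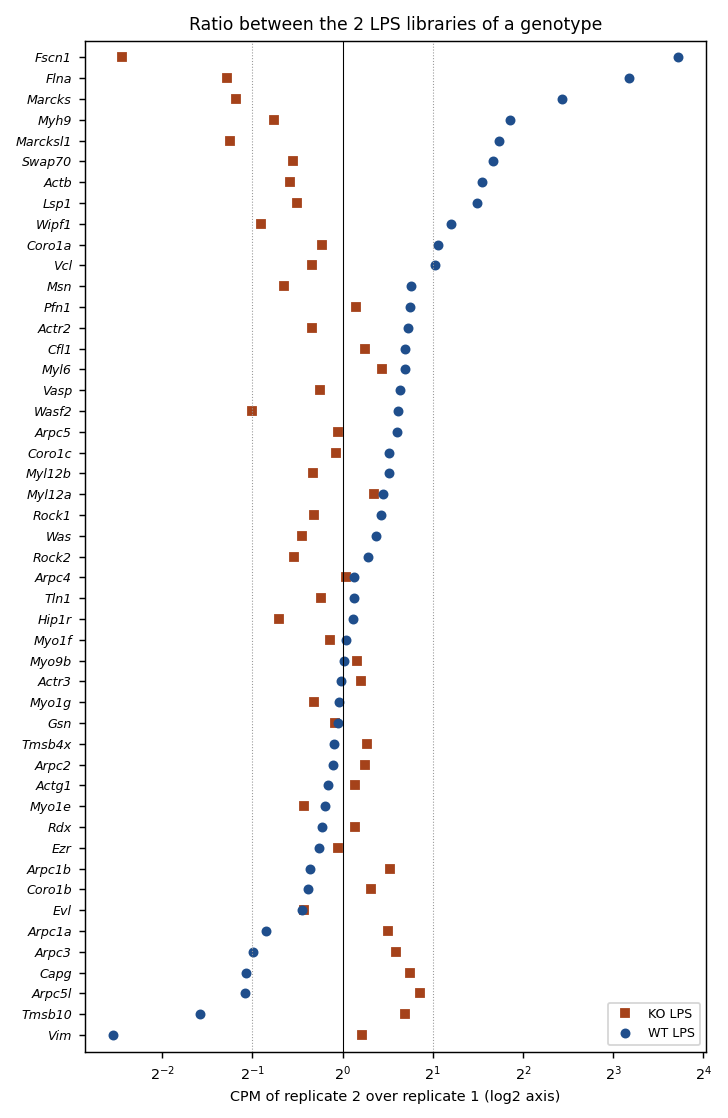
Ratio of CPM in library 2 over library 1 for each of the 48 genes on a log2 axis, with squares for KO LPS and dots for WT LPS; dotted lines mark 2-fold. Fscn1, Flna and Marcks are at the top with KO LPS squares on the left and WT LPS dots far to the right, and Vim is at the bottom.

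Other genes of actin control, in 4 lists by function of partners of WASP, WAVE and formins, further actin-binding proteins, further myosins and adhesion adaptors, held 98 tested genes. In KO LPS against WT LPS 1 of the 98 (1.02%) was called, beside 0.772% of all genes, and it was lower: Vil1, which encodes the microvillus protein villin, had 1.58 and 1.99 CPM in KO LPS against 23.5 and 19.8 CPM in WT LPS (log2 fold change -3.6 ± 0.45 SE, edgeR adjusted p = 0.0315). It rose with LPS in both genotypes: KO steady-state libraries had 0.388 and 0.177 CPM (log2 fold change 2.58 ± 0.53 SE, edgeR adjusted p = 0.0257), and WT steady-state libraries had 0.483 and 0.297 CPM (log2 fold change 5.78 ± 0.51 SE, edgeR adjusted p = 0.00372). These steady-state values are near 0, so the size of both rises is uncertain. The rise in WT stayed called without each library in turn. The other 2 calls went without any 1 library of KO cells or of WT cells at steady state, with edgeR adjusted p between 0.0835 and 0.152 for KO against WT and between 0.0522 and 0.18 for the rise in KO. At steady state 0 of 98 were called in KO against WT, by edgeR or DESeq2. With LPS, 4 were called higher and 5 lower in KO (9.18%, beside 11.8% of all genes), and 4 higher and 1 lower in WT (5.1%, beside 6.49%). Zyx, which encodes the focal adhesion protein zyxin, was at 197 and 150.2 CPM in KO LPS, against 801 and 653 CPM in KO steady state (log2 fold change -2.07 ± 0.37 SE, edgeR adjusted p = 0.0178), and lost its call without any 1 of the 4 KO libraries (edgeR adjusted p between 0.0513 and 0.123). Myo10, a myosin of filopodia, was at 78.6 and 71.8 CPM in WT LPS, against 33.9 and 22.6 CPM in WT steady state (log2 fold change 1.41 ± 0.28 SE, edgeR adjusted p = 0.0308), and lost its call without WT LPS library 1 or any 1 steady-state library (edgeR adjusted p between 0.0569 and 0.184). Leaving out 1 library moved the count of called genes in these lists to between 0 and 14 in KO against WT with LPS, 0 and 27 with LPS in KO and 1 and 26 with LPS in WT; the highest counts came without a WT LPS library.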

How the data were processed

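The table of read counts per gene was deposited by the authors as whole numbers, 1 column for each of the 8 libraries, with no normalization. The RNA came from an RNeasy plus extraction and the libraries from a TruSeq RNA v2 kit, per the labels' protocols. Tools listed in the submitters' processing notes are TopHat2 2.0.8, Subread 1.4.3, featureCounts and edgeR 3.6.8, with the genome build mm10. The treatment of reads that match several genes is not stated there.

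Genes were filtered with filterByExpr (minimum count 10, minimum total 15), which left 12442 of 23420, and scaled with TMM factors in edgeR 4.0.16 (R 4.3.3). The quasi-likelihood F test was fitted over all 8 libraries with 1 coefficient per group (4 residual and 3.4 prior degrees of freedom), two-sided, for 5 comparisons, with Benjamini-Hochberg adjustment over all genes. CPM values use the scaled library sizes, and the SE is the log2 fold change over the square root of F. Exon lengths and shared windows come from GENCODE M21, promoters from RefSeq. The procedure was run on simulated counts with the same spread in all groups, unlike these libraries. That check does not cover the unequal spread seen here. Alternatives were RLE and upper-quartile factors, no filter, a CPM minimum of 1 in 2 libraries, robust dispersion, DESeq2 1.42.0, a fit of the compared groups alone, a replicate block and leaving out each library.

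The members, gene lists and tests were chosen with earlier results of these data known. Values by library were given for called genes, the 3 smallest p of each comparison and the most abundant gene of each role, and for pathway lists at most 4 called genes; Gsn, Myo1f, Swap70, Marcks, Marcksl1, Arpc1a, Flna and the genes over 2-fold apart between libraries were singled out after their values were seen. Of the pathway lists, 1 is not reported here.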

Additional observations from a re-analysis of the deposited data

Results flagged for a closer look

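Of the 48 genes, 4 (8.33%) had both KO LPS libraries on one side of both KO steady-state libraries and both WT LPS libraries on the opposite side of both WT steady-state libraries. Over all genes tested, 381 of 12442 (3.06%) did so. None of the 4 differences passed edgeR's adjusted threshold in the interaction test. For Hip1r the LPS response was lower in KO and higher in WT, with a difference of -2.96 ± 0.49 on the log2 scale (SE, adjusted p = 0.489). Ezr moved the same way, with 93.0 and 90.0 CPM in KO LPS and 293 and 245 CPM in WT LPS on either side of all 4 steady-state libraries, and a difference of -1.07 ± 0.33 (SE, edgeR adjusted p = 0.631). Actg1 did too, with a difference of -0.97 ± 0.30 (SE, edgeR adjusted p = 0.631), and 37.4% of its transcript windows were shared with other genes. Myo1f went the other way: it had 698 and 633 CPM in KO LPS against 567 and 468 CPM in KO steady state, and 312 and 322 CPM in WT LPS against 520 and 372 CPM in WT steady state, a difference of 0.85 ± 0.40 (SE, edgeR adjusted p = 0.829).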

How the results depend on the processing

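RLE and upper-quartile factors, a CPM of at least 1 in 2 libraries and robust dispersion gave the same counts of called genes of the machinery as reported: 3 in KO against WT with LPS, 4 with LPS in KO, 2 with LPS in WT, and 0 at steady state and in the interaction. No filter gave 5, 8 and 3 in the first 3 comparisons (10.4%, 16.7% and 6.25%), beside 3.1%, 12.8% and 8.62% of all genes. DESeq2 gave 8, 10 and 4 (16.7%, 20.8% and 8.33%), beside 8.2%, 20.5% and 14.5% of all genes. Its 2 in the interaction (4.17%) stand beside 0.798% of all genes. Fitting only the groups compared gave 0, 7 and 0 (0%, 14.6% and 0%), beside 0%, 19.5% and 1.89% of all genes. Leaving out 1 library gave between 0 and 9 in KO against WT with LPS, between 0 and 11 with LPS in KO and between 0 and 16 with LPS in WT, and 0 in the other 2 comparisons. A group left with 1 library is assumed to vary like the others, and such fits have fewer residual degrees of freedom. Folds were recomputed for 38 pairs of a gene and a comparison (those at an unadjusted p under 0.05, Actb in KO against WT with LPS and Myo1f in the interaction), and 37 kept their direction under every alternative. The exception was Vim in KO against WT with LPS, between -2.52 and 0.01 over the fits that leave out 1 library, with 0.01 without WT LPS library 1. Nearly all pairs were picked by p-value in these same libraries, so a kept direction is weak evidence of stability.

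Over all genes, 96 were called in KO against WT with LPS, against 538 with no filter, 1044 with DESeq2, 0 with only the LPS groups, 826 without WT LPS library 1, 206 without WT LPS library 2 and at most 9 without any other library. Called genes of the 4 pathway lists numbered 1, 9 and 5 in the same 3 comparisons, 10, 15 and 9 with no filter, 20, 25 and 16 with DESeq2, and 0, 18 and 2 with only the groups compared.

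Replicate numbers did not pair the libraries: deviations of same-numbered libraries correlated between -0.648 (KO LPS with WT LPS) and 0.269. With the replicate number as a block, 0, 3 and 2 genes of the machinery and 0, 4 and 1 pathway genes were called. The shares of all genes in those fits were 0.0643%, 6.24% and 3.74%. With the KO LPS numbers crossed, an alternative added after seeing the data, the block gave 4, 8 and 3, and 5, 23 and 12 pathway genes. There the shares of all genes were 2.19%, 20% and 10.3%.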
